A study of Mus musculus with 36 samples.

Results

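The 34 genes described here encode the machinery of mitosis, from the cyclins and kinases that start it to the proteins that split the cell. They were taken from a named list, and a gene was read from the probe set annotated to that gene alone, with the highest mean over 36 arrays where it had more than 1. That rule gave a probe set to 33 of the 34 genes, out of 19938 genes with a probe set of their own and 28853 probe sets in all. Ccnb1, which encodes cyclin B1, had no probe set of its own and gives no value. Top2a had 2, of which the brighter was used. RNA of distal colon was hybridised to Affymetrix arrays, 1 for each of 36 mice, and values are log2 probe set signals.

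The arrays fell into 5 groups by title. There were 9 Control arrays, 7 from mice given a scrambled siRNA, 6 from mice given an unmodified siRNA against Tnf (siTNF), 6 from mice given that siRNA with O-methyl nucleotides (siTNF-OMe) and 8 from mice given it with O-methyl-propanediol (siTNF-OMe-P). The siRNAs were delivered into the rectum, and the target of all but the scrambled one is the gene of the inflammatory cytokine tumour necrosis factor. All 36 animals, Control included, are labelled as treated with 5% DSS, dextran sulfate sodium, which damages the colon lining. The design text speaks of the siRNA-dosed groups only, so it does not settle the treatment of the Control animals, and Control serves as a name. Colon length, as labelled, ran from 7.2 to 8.1 in Control and from 5.8 to 6.7 with the scrambled siRNA. It ran from 5.2 to 6.4 with siTNF, from 5.5 to 6.2 with siTNF-OMe and from 6 to 7.1 with siTNF-OMe-P. Effects of an siRNA and of any difference in DSS treatment cannot be told apart in comparisons with Control. Strain, age, siRNA dose and the time between dosing and sampling are not given in the sources used here. Epithelial markers were high in every array, their mean over 8 genes lying between 11.4 and 12.0 log2 across the groups, with Control at a median of 11.8.

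Mitosis genes are transcribed late in the cell cycle, in cells about to divide, and are switched off in resting and differentiated cells. In the colon the dividing cells sit in the lower crypt, where stem cells and their progeny replace the surface epithelium, while activated lymphocytes and stromal cells can divide as well. Transcription of many of these genes depends on the DREAM and MuvB complexes with B-Myb and FoxM1, which act at the cell cycle genes homology region (CHR), and on the factor NF-Y, which binds CCAAT boxes. The tissue was measured whole, so fewer dividing cells and less RNA per cell cannot be told apart.

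The promoters of 3 genes that fell are shown because they carry these motifs. Each is the 250 bases before the transcript start in RefSeq, on GRCm38.p6, 5′ to 3′ in the direction of the gene, and capitals mark a CHR (TTTGAA or TTCGAA) or a CCAAT box (CCAAT) on either strand. For Top2a the last 10 bases of the window also lie within the gene as annotated.
Top2a (chr11:99024190-99024439, minus strand): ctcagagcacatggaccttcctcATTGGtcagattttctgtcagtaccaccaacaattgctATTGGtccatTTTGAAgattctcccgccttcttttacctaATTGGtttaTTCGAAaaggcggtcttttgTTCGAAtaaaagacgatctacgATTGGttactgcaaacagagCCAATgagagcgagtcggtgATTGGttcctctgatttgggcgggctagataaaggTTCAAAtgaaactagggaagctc
Ccnb2 (chr9:70421555-70421804, minus strand): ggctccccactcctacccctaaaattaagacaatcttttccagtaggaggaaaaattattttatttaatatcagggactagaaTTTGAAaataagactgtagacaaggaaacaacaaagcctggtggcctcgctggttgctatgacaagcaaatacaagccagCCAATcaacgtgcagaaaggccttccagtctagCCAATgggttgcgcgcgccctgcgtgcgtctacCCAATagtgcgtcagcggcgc
Kif11 (chr19:37376132-37376381, plus strand): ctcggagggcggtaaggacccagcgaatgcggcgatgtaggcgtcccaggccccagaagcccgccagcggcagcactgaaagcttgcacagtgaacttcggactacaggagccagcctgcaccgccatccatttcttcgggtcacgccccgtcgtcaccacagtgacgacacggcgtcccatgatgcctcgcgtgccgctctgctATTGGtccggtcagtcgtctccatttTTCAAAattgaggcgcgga
The Top2a window held 4 CHR matches and 6 CCAAT boxes. That of Ccnb2 held 1 CHR match and 3 CCAAT boxes, which began 87, 54 and 21 bases before the start. That of Kif11 held 1 of each, the CHR match beginning 19 bases before the start. Some genes fell more than Kif11 in scrambled against Control and are not shown. Among them, the windows of Birc5, Mad2l1 and Nusap1 held 0 matches of either motif, and that of Mki67 held 2 CHR matches and 3 CCAAT boxes.

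Of the 34 listed genes, 28 had a promoter in the table used. In the 250 bases before the start, 20 of 28 held a CCAAT box (71.4%, against 37.5% of the promoters of 27018 genes), and 14 held 2 or more (50% against 11.5%). A CHR was found in 11 of 28 (39.3% against 19.5%), and a CHR together with a CCAAT box in 10 (35.7% against 7.00%). When the first 50 bases after the start were searched too, a CHR was found in 21 of 28 (75.0% against 21.7%). An E2F motif (TTTCCCGC, TTTGGCGC or TTTCGCGC, both strands) was found in 1 of 28 (3.57% against 1.78%). These are matches of letters and say nothing of binding in these animals.

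All 33 measured mitosis genes were lower in each of the 4 siRNA-dosed groups than in Control, at a limma adjusted p under 0.05. Against Control, the scrambled siRNA group had a median member difference of -0.79 log2, where the median over all probe sets was -0.03. The lowest member was Top2a at -1.46 and the member nearest to 0 was Foxm1 at -0.43. Of all probe sets 4.45% were called lower and 7.27% higher in that comparison, where 33 and 0 of the 33 members were. For 17 members no scrambled array reached any Control array, which held in this direction for 0.863% of all probe sets. In 11 members the fall was at least 1 log2, as in 0.319% of all probe sets.

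**Figure D1:**
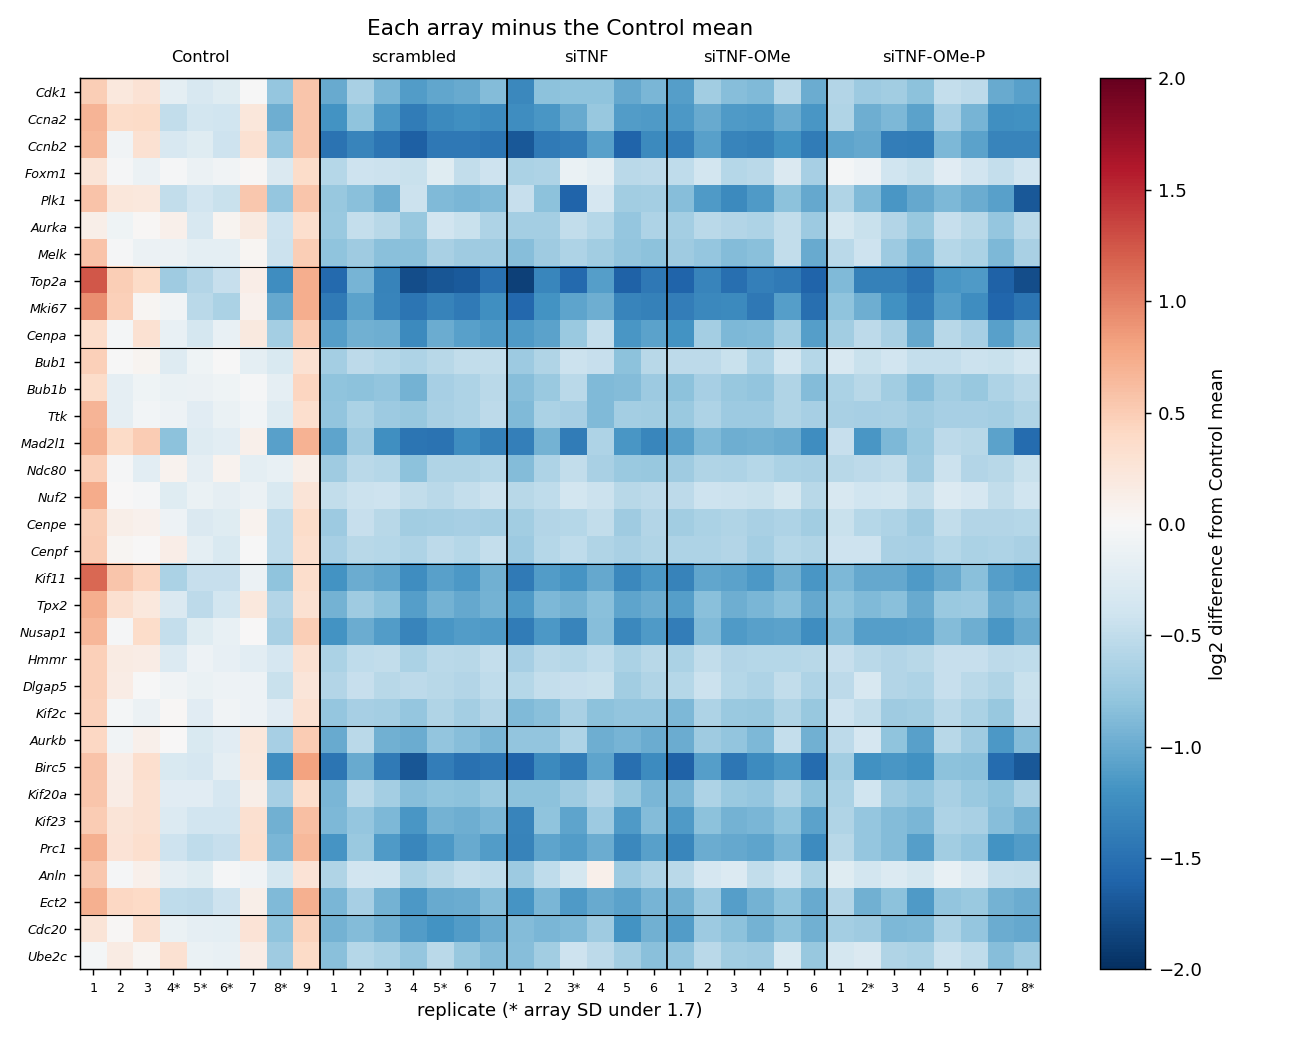
The log2 signal of each of 33 mitosis genes (lines) in each of 36 arrays (columns, numbered by replicate within the group), minus the mean of the 9 Control arrays; blue is lower, red is higher, and a star marks an array with an SD of log2 signal under 1.7. The 27 siRNA-dosed columns are blue for nearly every gene, and among the Control columns replicate 8 is blue for most genes. The mean signal over the 33 genes was 7.925, 7.862, 7.916 and 7.515 in the starred Control replicates 4, 5, 6 and 8. It lay between 8.23 and 8.709 in the other Control arrays.

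Genes that start mitosis fell in all 7 measured members, with a median of -0.79 for scrambled against Control. Ccnb2 encodes cyclin B2, a partner of the mitotic kinase Cdk1. Its log2 signal ranged from 8.63 to 10.05 in Control (median 9.33) and from 7.78 to 8.08 with the scrambled siRNA (median 7.95). It ranged from 7.70 to 8.32 with siTNF (median 8.01), from 8.00 to 8.31 with siTNF-OMe (8.07) and from 8.01 to 8.51 with siTNF-OMe-P (8.21). Every siRNA-dosed array was below every Control array for this gene. Scrambled was 2.73-fold lower than Control (-1.45 ± 0.14 log2, SE, n = 7 and 9, limma adjusted p = 1.28e-08). Ccna2 encodes cyclin A2, which acts in S phase and at entry into mitosis. In Control it ranged from 7.32 to 8.99 (median 8.53) and with the scrambled siRNA from 6.89 to 7.50 (median 7.08). It ranged from 7.06 to 7.54 with siTNF (median 7.18), from 7.14 to 7.31 with siTNF-OMe (7.17) and from 7.08 to 7.70 with siTNF-OMe-P (7.35). The lowest Control array lay within the scrambled, siTNF and siTNF-OMe-P ranges and above the siTNF-OMe range. Its fall in scrambled against Control was 2.24-fold (-1.17 ± 0.16, limma adjusted p = 3.14e-06).

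The other 5 members of this class had smaller differences of scrambled from Control. Cdk1, the kinase that drives cells into mitosis, differed by -0.94 ± 0.14, and Plk1, a kinase that promotes entry and spindle assembly, by -0.79 ± 0.17. Melk, a kinase of dividing cells, differed by -0.74 ± 0.10, the centrosome kinase gene Aurka by -0.57 ± 0.089 and Foxm1, which encodes a transcription factor of G2 and mitosis genes, by -0.43 ± 0.088. All 5 passed the limma threshold, with adjusted p values from 2.85e-06 (Melk) to 0.00168 (Plk1). Melk was the 1 gene among these 5 whose scrambled arrays all lay below Control.

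Genes of chromosome structure had the lowest class median, -1.29 over 3 members, and each fell by more than 1 log2. Their mean signals lay at percentiles 38.4 to 58.5 of all probe sets, and those of the kinetochore genes at 9.79 to 62.3. The part of the signal level in the order of the classes was not tested. Top2a, which lies on chromosome 11 from 98992947 to 99024199, encodes the topoisomerase that untangles sister chromatids. Its signal ranged from 7.50 to 9.99 in Control (median 8.87) and from 6.97 to 7.82 with the scrambled siRNA (median 7.19). With siTNF it ranged from 6.88 to 7.63 (median 7.25), with siTNF-OMe from 7.14 to 7.43 (7.28) and with siTNF-OMe-P from 6.96 to 7.86 (7.39). Control had the widest range, and its lowest array lay inside the scrambled, siTNF and siTNF-OMe-P ranges. Top2a was 2.76-fold lower in scrambled than in Control (-1.46 ± 0.22, limma adjusted p = 1.40e-05). The second Top2a probe set differed by -0.06 ± 0.056 (limma adjusted p = 0.647). Its mean signal was 5.87, where the deposited values run from 4.95 to 14.1. The probe sets of this gene thus gave different results, and the part of the low signal in that was not tested. Mki67 encodes Ki-67, the coat protein of mitotic chromosomes used as a stain for dividing cells. It ranged from 7.51 to 9.47 in Control (median 8.57) and from 7.07 to 7.47 with the scrambled siRNA (median 7.20). Its ranges were 6.96 to 7.56 with siTNF (median 7.28), 7.02 to 7.43 with siTNF-OMe (7.20) and 6.94 to 7.73 with siTNF-OMe-P (7.31). Scrambled and siTNF-OMe arrays lay wholly below Control, and siTNF and siTNF-OMe-P arrays overlapped its lowest end. The scrambled group was 2.45-fold lower than Control (-1.29 ± 0.18, limma adjusted p = 3.11e-06). Cenpa, the histone variant that marks centromeres, differed by -1.07 ± 0.13 (limma adjusted p = 7.11e-07), with no scrambled array reaching Control.

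Kinetochore and spindle checkpoint genes fell in 8 of 8 members, with a median of -0.63. Mad2l1 encodes Mad2, the checkpoint protein that holds anaphase back until chromosomes are attached. It ranged from 8.38 to 10.17 in Control (median 9.56) and from 7.98 to 8.75 with the scrambled siRNA (median 8.23). It ranged from 8.06 to 8.86 with siTNF (median 8.24), from 8.23 to 8.58 with siTNF-OMe (8.48) and from 7.93 to 9.01 with siTNF-OMe-P (8.65). The lowest Control array fell inside the range of each siRNA-dosed group. Mad2l1 was 2.28-fold lower in scrambled than in Control (-1.19 ± 0.20, limma adjusted p = 6.41e-05). Bub1b encodes BubR1, a checkpoint protein that acts beside Mad2. Its range was 7.94 to 8.56 in Control (median 8.04) and 7.19 to 7.58 with the scrambled siRNA (median 7.34). Its ranges were 7.25 to 7.59 with siTNF (median 7.33), 7.26 to 7.52 with siTNF-OMe (7.35) and 7.28 to 7.60 with siTNF-OMe-P (7.47). All 4 siRNA-dosed groups lay below all Control arrays, and their ranges overlapped each other. The difference of scrambled from Control was 1.67-fold (-0.74 ± 0.080, limma adjusted p = 5.22e-08).

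Among the other 6 kinetochore genes, Ttk, which encodes the checkpoint kinase Mps1, differed by -0.67 ± 0.085 and Bub1, a checkpoint kinase of the centromere, by -0.56 ± 0.079. Ndc80 and Nuf2, which encode partners in the complex that grips microtubules, differed by -0.63 ± 0.077 and -0.46 ± 0.087. Cenpe, a kinetochore motor, differed by -0.63 ± 0.087 and Cenpf, a large protein of the outer kinetochore, by -0.56 ± 0.084. The limma adjusted p values of these 6 lay between 4.58e-07 (Ndc80) and 3.27e-04 (Nuf2). Scrambled and Control arrays did not overlap for Ttk, Bub1, Ndc80 and Nuf2, and did for Cenpe and Cenpf.

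Spindle genes fell in 6 of 6 members, with a median of -0.80. Nusap1 encodes a protein that bundles spindle microtubules. It ranged from 7.47 to 8.79 in Control (median 8.11) and from 6.80 to 7.13 with the scrambled siRNA (median 6.99). It ranged from 6.72 to 7.28 with siTNF (median 6.91), from 6.74 to 7.24 with siTNF-OMe (7.02) and from 6.97 to 7.25 with siTNF-OMe-P (7.07). None of the 27 siRNA-dosed arrays reached the Control range. The scrambled group was 2.21-fold lower (-1.14 ± 0.13, limma adjusted p = 1.62e-07). Kif11, on chromosome 19 from 37376382 to 37421863, encodes Eg5, the motor that pushes spindle poles apart. Its range was 7.07 to 9.02 in Control (median 7.76) and 6.64 to 6.91 with the scrambled siRNA (median 6.80). Its ranges were 6.47 to 6.86 with siTNF (median 6.72), 6.55 to 6.92 with siTNF-OMe (6.77) and 6.72 to 7.04 with siTNF-OMe-P (6.86). Again no siRNA-dosed array reached Control, and the highest siTNF-OMe-P array came nearest. Kif11 was 2.11-fold lower in scrambled than in Control (-1.08 ± 0.17, limma adjusted p = 2.44e-05).

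The other 4 spindle genes also passed, with limma adjusted p values from 1.82e-07 (Kif2c) to 5.75e-06 (Dlgap5). Tpx2, which activates Aurora A on the spindle, differed by -0.92 ± 0.12 between scrambled and Control, and Kif2c, which shortens microtubules at centromeres, by -0.68 ± 0.078. Hmmr, a spindle and hyaluronan-binding protein, differed by -0.54 ± 0.076, and Dlgap5, a protein of spindle microtubules near the chromosomes, by -0.53 ± 0.075. In all 6 spindle genes the scrambled arrays lay below every Control array.

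Genes of the chromosomal passenger complex and of cytokinesis fell in 7 of 7 members, with a median of -0.92. Birc5 encodes survivin, a subunit of the passenger complex. It ranged from 8.01 to 10.05 in Control (median 9.38) and from 7.53 to 8.25 with the scrambled siRNA (median 7.81). It ranged from 7.64 to 8.19 with siTNF (median 7.91), from 7.63 to 8.14 with siTNF-OMe (7.89) and from 7.56 to 8.56 with siTNF-OMe-P (8.06). The lowest Control array overlapped every siRNA-dosed group. Birc5 was 2.64-fold lower in scrambled than in Control (-1.40 ± 0.19, limma adjusted p = 2.09e-06). Prc1 encodes the protein that holds the central spindle together. Its range was 7.362 to 8.98 in Control (median 8.55) and 6.97 to 7.53 with the scrambled siRNA (median 7.15). Its ranges were 6.95 to 7.29 with siTNF (median 7.17), 6.97 to 7.36 with siTNF-OMe (7.23) and 7.08 to 7.72 with siTNF-OMe-P (7.45). The siTNF and siTNF-OMe arrays lay below Control, the latter narrowly, and the scrambled and siTNF-OMe-P arrays overlapped its lowest array. Scrambled was 2.11-fold lower than Control (-1.08 ± 0.16, limma adjusted p = 1.83e-05).

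In the same class, Kif23, a motor of the central spindle, differed by -0.93 ± 0.15 between scrambled and Control. Ect2, which activates the GTPase that contracts the cleavage furrow, differed by -0.92 ± 0.16. Aurkb, the kinase of the passenger complex, differed by -0.85 ± 0.13, Kif20a, another central spindle motor, by -0.76 ± 0.11 and Anln, which encodes the furrow scaffold anillin, by -0.50 ± 0.10. Limma adjusted p values ran from 1.40e-05 (Aurkb) to 7.80e-04 (Anln). Anln was the 1 gene of the 7 for which scrambled and Control arrays did not overlap.

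Both genes of the anaphase-promoting complex pathway fell. Cdc20 encodes the activator that turns this ubiquitin ligase on cyclin B and securin. It ranged from 8.33 to 9.58 in Control (median 9.16) and from 7.94 to 8.27 with the scrambled siRNA (median 8.15). It ranged from 7.94 to 8.43 with siTNF (median 8.24), from 8.02 to 8.42 with siTNF-OMe (8.26) and from 8.11 to 8.52 with siTNF-OMe-P (8.31). The scrambled arrays stayed below Control, and the other groups overlapped its lowest array. Cdc20 was 2.02-fold lower in scrambled than in Control (-1.01 ± 0.12, limma adjusted p = 1.83e-07). Ube2c encodes the ubiquitin-conjugating enzyme that works with the complex. It ranged from 8.08 to 9.17 in Control (median 8.83) and from 7.92 to 8.24 with the scrambled siRNA (median 8.03). Its ranges were 7.94 to 8.38 with siTNF (median 8.10), 7.99 to 8.48 with siTNF-OMe (8.08) and 7.94 to 8.497 with siTNF-OMe-P (8.23). Every siRNA-dosed group overlapped the lowest Control array for Ube2c, and the fall in scrambled was 1.63-fold (-0.71 ± 0.11, limma adjusted p = 2.90e-05).

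**Figure D2:**
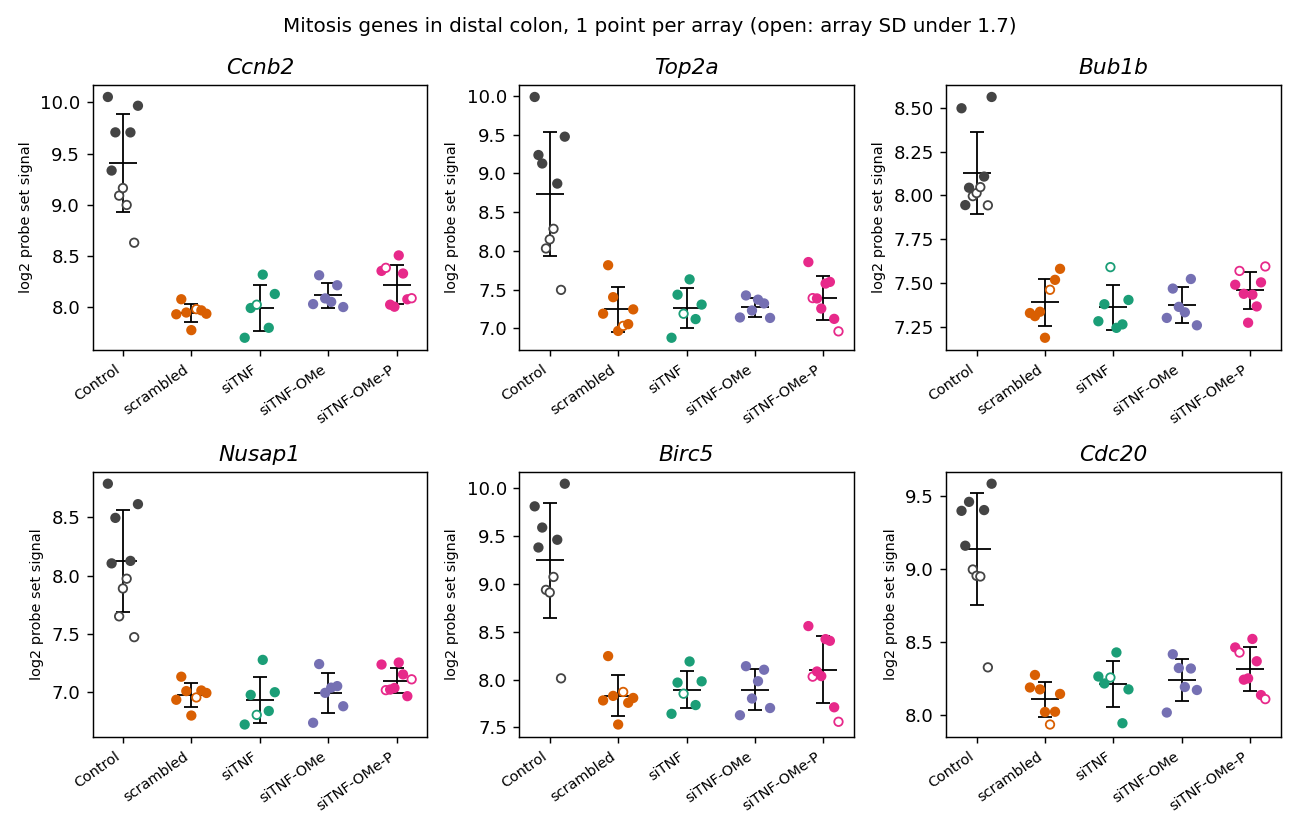
Log2 probe set signal of Ccnb2, Top2a, Bub1b, Nusap1, Birc5 and Cdc20 in the 5 groups; each point is 1 array, bars are the group mean and SD, and open points are arrays with an SD under 1.7. The Control mean lies above those of the siRNA-dosed groups, whose points overlap each other. For Top2a, Birc5 and Cdc20 the lowest Control point lies among siRNA-dosed points, and the lowest Control point of each gene shown is an open one.

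The 3 groups given siRNA against Tnf were compared with the same 9 Control arrays, so the 4 comparisons are not independent of each other. With siTNF 33 of 33 members were lower than Control (4.71% of all probe sets were), with a median of -0.81 beside -0.04 over all probe sets, and 17 members did not overlap Control (0.957%). With siTNF-OMe 33 were lower (5.81%), with a median of -0.81 beside -0.05, and 21 did not overlap (1.80%). With siTNF-OMe-P 33 were lower (6.58%), with a median of -0.74 beside -0.03, and 10 did not overlap (1.01%). Top2a had the lowest value in all 3, at -1.51, -1.46 and -1.36. The members nearest to 0 were Foxm1 with siTNF (-0.45), Anln with siTNF-OMe (-0.45) and Foxm1 with siTNF-OMe-P (-0.31). Anln had the highest limma adjusted p in each, 0.00224, 0.00279 and 0.0146.

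With siTNF the 5 members of smallest p against Control were Kif2c (-0.80 ± 0.082, limma adjusted p = 1.65e-08), Ccnb2 (-1.42 ± 0.15), Bub1b (-0.78 ± 0.084), Nusap1 (-1.19 ± 0.14) and Ndc80 (-0.69 ± 0.080). With siTNF-OMe they were Bub1b (-0.75 ± 0.084, limma adjusted p = 6.12e-08), Kif2c (-0.73 ± 0.082), Ccnb2 (-1.29 ± 0.15), Nusap1 (-1.13 ± 0.14) and Ndc80 (-0.63 ± 0.080). With siTNF-OMe-P they were Bub1b (-0.66 ± 0.077, limma adjusted p = 1.46e-07), Ccnb2 (-1.18 ± 0.14), Nusap1 (-1.03 ± 0.13), Ttk (-0.65 ± 0.082) and Kif2c (-0.58 ± 0.076). For 10 members (Ccnb2, Bub1, Bub1b, Ttk, Ndc80, Kif11, Tpx2, Nusap1, Hmmr and Kif2c) all 27 siRNA-dosed arrays lay below all 9 Control arrays, as did 0.468% of all probe sets.

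**Figure D3:**
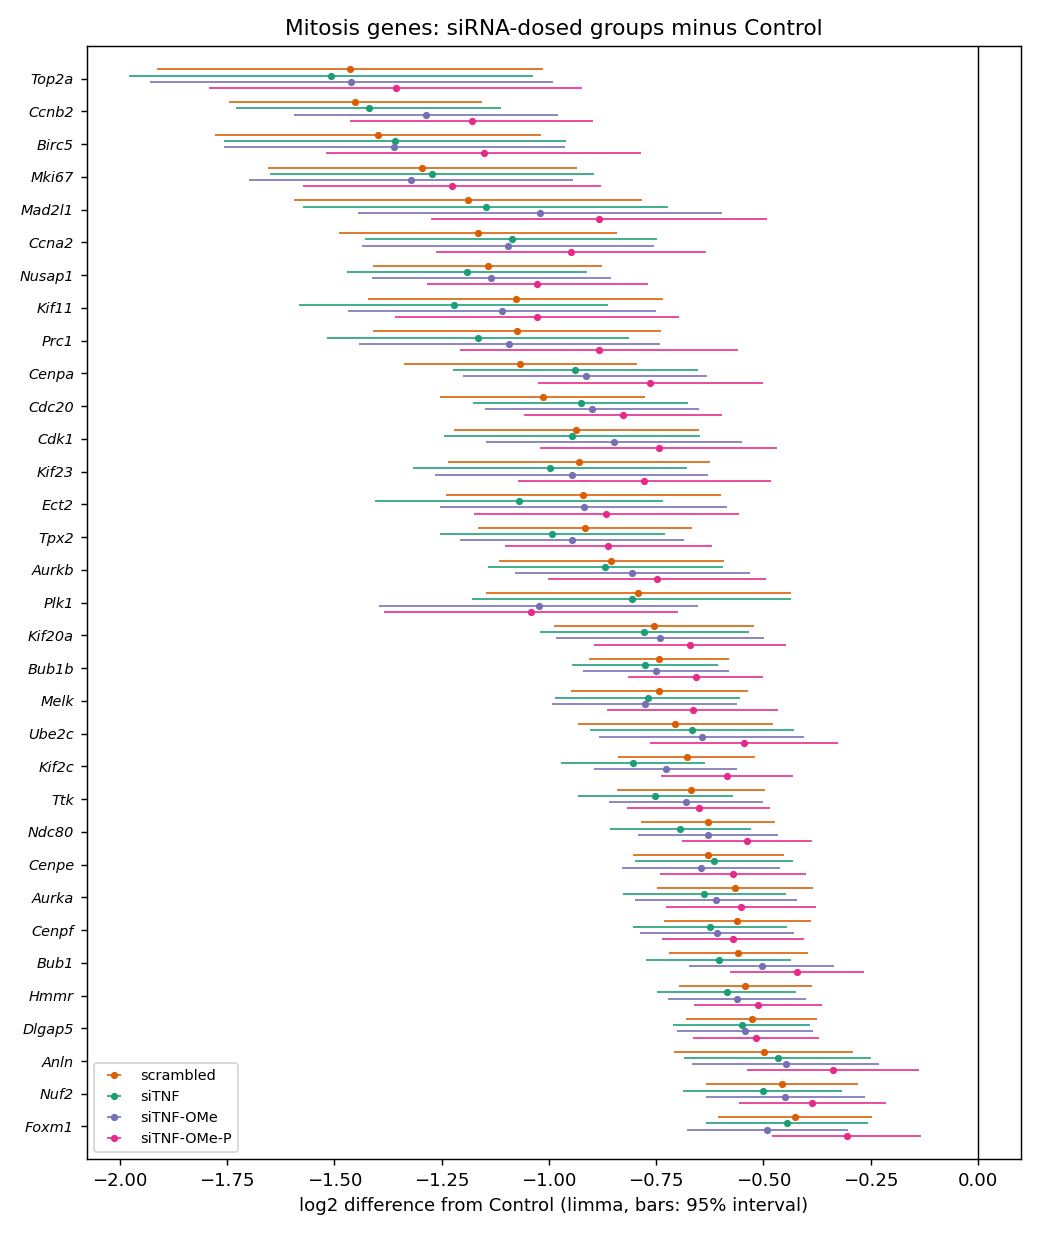
Difference of each siRNA-dosed group from Control (x axis, log2) for each of 33 mitosis genes (y axis); points are limma estimates, bars are 95% intervals and colours are the 4 groups. All intervals lie below 0, from Top2a, with the lowest scrambled value at -1.46, to Foxm1 at -0.43.

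Control arrays spread more than the others. The median SD of the 33 members was 0.38 log2 in Control, against 0.12 with the scrambled siRNA, 0.14 with siTNF, 0.12 with siTNF-OMe and 0.15 with siTNF-OMe-P. The scrambled SD was below that of Control in 33 of 33 members, as it was in 91.6% of all probe sets. In 8 arrays the SD over all probe sets was under 1.7, and 4 of them were Control, 1 scrambled, 1 siTNF and 2 siTNF-OMe-P. Control replicate 8, with an array SD of 1.57, was the lowest Control array for 31 of 33 members, while replicate 1 was the highest for 23 and replicate 9 for 10. For 19 members the 4 narrow Control arrays all lay below the other 5, as they did for 30.8% of all probe sets. With the narrow arrays left out, the scrambled SD was below that of Control in 30 of 33 members, beside 48.2% of all probe sets. The median member SD was then 0.25 in Control and 0.115 with scrambled, and that of all probe sets 0.138 and 0.136. Without the 8 narrow arrays, all 33 members were still lower in scrambled than in Control, with a median of -1.1, and 21.9% of all probe sets were called lower. The differences there were 1.07 (Ndc80) to 1.49 (Plk1) times those with all arrays, Ccnb2 at -1.83 ± 0.12 and Top2a at -2.08 ± 0.17. With the array SD as a further term in the fit, 33 members were called lower in scrambled than in Control, with a median of -0.879. With arrays scaled to one SD 33 were called too, with a median of -0.796, where the main fit gave -0.792. Beyond these settings, the part of the array spread in the size of these differences was not tested.

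**Figure D4:**
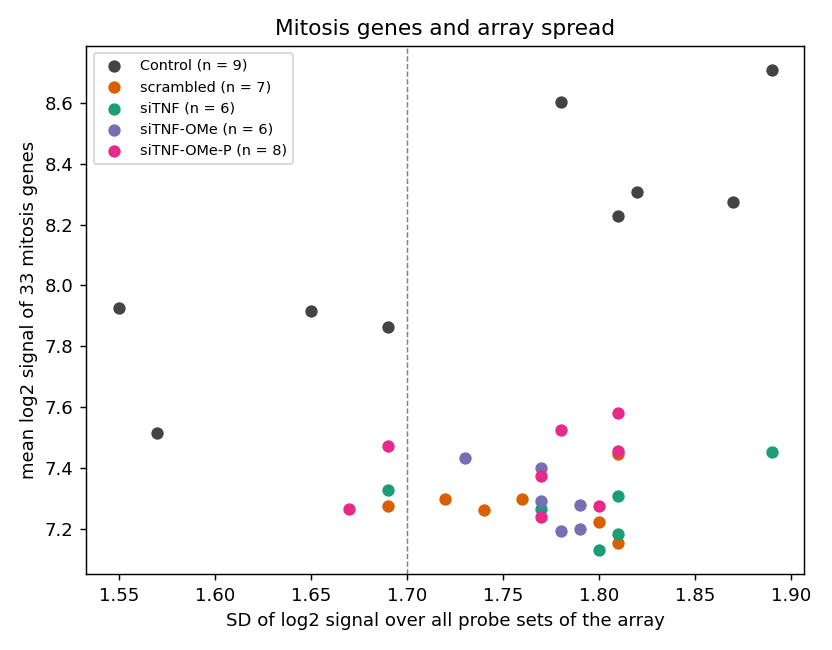
Mean log2 signal of the 33 mitosis genes in each array (y axis) against the SD of log2 signal over all probe sets of that array (x axis); each point is 1 array, coloured by group, and the dashed line marks an SD of 1.7. Control means run from 7.51 to 8.71 and those with the scrambled siRNA from 7.15 to 7.45, and 4 Control points lie left of the line.

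All 33 members lay lower in scrambled than in Control within every batch. The labels split the arrays into 3 amplification and 2 hybridization batches, and every group had arrays in each. For scrambled against Control, 30 of 33 members were called lower within hybridization batch 1 (2.05% of all probe sets), with a median of -0.96, and 26 within hybridization batch 2 (0.905%), with a median of -0.70. Within amplification batch 2, with 3 scrambled and 4 Control arrays, 31 were called (4.56%), with a median of -0.62. Amplification batch 1 held 1 scrambled and 2 Control arrays, so its fit takes the lone array to vary like the other groups; it called 23 (2.73%), with a median of -1.23. Within amplification batch 3, with 3 scrambled and 3 Control arrays, limma called 0 (0.0728%), while 33 of 33 lay below 0 with a median of -0.88. The smallest limma adjusted p there was 0.134, for Ndc80. The share of all probe sets below 0 within a batch was not computed, and over all arrays it was 58.7%.

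No mitosis gene passed the limma threshold between any pair of siRNA-dosed groups, and no probe set of the array did either (0% in all 6 comparisons). The siRNAs differ in their nucleotides, which carry no modification in siTNF, O-methyl groups in siTNF-OMe and O-methyl-propanediol in siTNF-OMe-P. Against the scrambled siRNA, the median member difference was -0.03 with siTNF (range -0.15 to 0.13), -0.00111 with siTNF-OMe (-0.23 to 0.17) and 0.09 with siTNF-OMe-P (-0.25 to 0.31). At an unadjusted p under 0.05 these comparisons held 0, 0 and 1 of 33 members, beside 1.08%, 1.58% and 2.90% of all probe sets. The 95% intervals of single members reached from -0.54 to 0.49 with siTNF, from -0.62 to 0.62 with siTNF-OMe and from -0.62 to 0.73 with siTNF-OMe-P. The median half-width of a member's interval was 0.266, 0.264 and 0.247 in these comparisons. The fit pooled its variance over all groups, Control included. The median member SD was 0.383 in Control and 0.116 to 0.147 in the siRNA-dosed groups. These intervals and p-values therefore carry the spread of Control too. With the siRNA-dosed groups fitted alone, limma also called 0 members in all 6 comparisons. The member medians against scrambled were then -0.0118 with siTNF, 0.00094 with siTNF-OMe and 0.099 with siTNF-OMe-P.

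With siTNF, the members of smallest p against scrambled were Kif2c (-0.12 ± 0.087), Ttk (-0.08 ± 0.094) and Cenpa (0.13 ± 0.15), all at a limma adjusted p of 1. With siTNF-OMe they were Plk1 (-0.23 ± 0.19), Cenpa (0.15 ± 0.15) and Ccnb2 (0.16 ± 0.16), again at 1. With siTNF-OMe-P they were Cenpa (0.30 ± 0.14), Ccnb2 (0.27 ± 0.15) and Bub1 (0.14 ± 0.082), each at a limma adjusted p of 1, and Cenpa was the 1 member with an unadjusted p under 0.05. Cenpa ranged from 8.09 to 8.64 with siTNF-OMe-P (median 8.49) and from 7.91 to 8.21 with the scrambled siRNA (median 8.09), and these ranges overlapped. Bub1 ranged from 6.42 to 6.58 with siTNF-OMe-P (median 6.46) and from 6.22 to 6.40 with the scrambled siRNA (median 6.34). Bub1 was the 1 member whose arrays did not overlap between these groups, as held in this direction for 0.0589% of all probe sets.

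**Figure D5:**
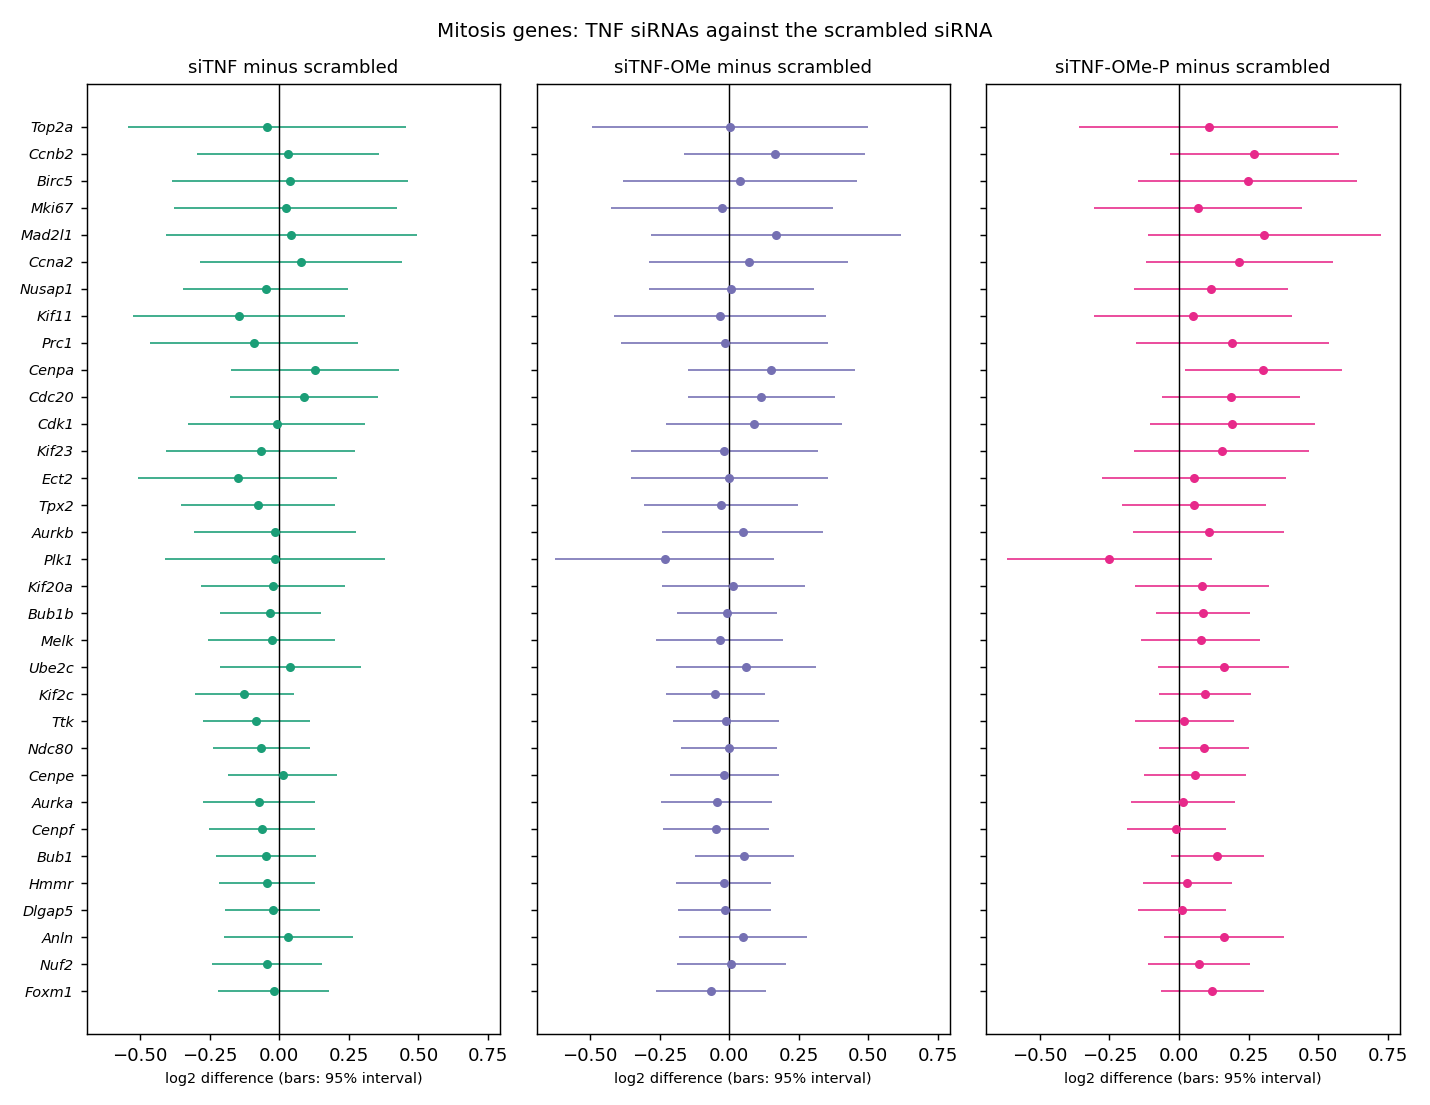
Difference of siTNF, siTNF-OMe and siTNF-OMe-P from the scrambled siRNA (x axes, log2) for each of 33 mitosis genes (y axis), with limma 95% intervals as bars. The intervals cross 0 except for Cenpa with siTNF-OMe-P (0.02 to 0.58), and in that panel 31 of 33 points lie above 0.

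Against scrambled, 31 of 33 members lay above 0 with siTNF-OMe-P, beside 52.8% of all probe sets, and 10 and 16 did with siTNF and siTNF-OMe (44.5% and 43.9%). These comparisons share the scrambled arrays. The lean with siTNF-OMe-P over scrambled was uneven between batches. Within amplification batch 3, 16 of 33 members lay below 0, with a median of 0.00748, and within amplification batch 2, 5 did, with a median of 0.0839. Amplification batch 1, with 1 scrambled array, had a median of 0.349. Between the modified and unmodified siRNAs, 26 members lay above 0 for siTNF-OMe minus siTNF (49.4%), with a median of 0.04, and 32 for siTNF-OMe-P minus siTNF (55.1%), with a median of 0.13. For siTNF-OMe-P minus siTNF-OMe 32 lay above 0 (58.4%), with a median of 0.09. Members move together across arrays, so such counts are not counts of independent genes. For siTNF-OMe minus siTNF the direction depended on the arrays used: 17 members lay above 0 without siTNF replicate 1, 27 lay below 0 within amplification batch 1 (1 siTNF-OMe and 2 siTNF arrays) and 22 below 0 within amplification batch 2. For siTNF-OMe-P minus siTNF-OMe, 21 members lay below 0 within amplification batch 3, with a median of -0.03. The members of smallest p for siTNF-OMe minus siTNF were Bub1 (0.10 ± 0.091), Plk1 (-0.22 ± 0.20) and Kif2c (0.08 ± 0.090), each at a limma adjusted p of 1, and 0 members had an unadjusted p under 0.05 (1.71%). For siTNF-OMe-P minus siTNF they were Kif2c (0.22 ± 0.084), Bub1 (0.18 ± 0.086) and Ndc80 (0.16 ± 0.082), each at a limma adjusted p of 0.974, and 2 had an unadjusted p under 0.05 (3.47%). For siTNF-OMe-P minus siTNF-OMe they were Foxm1 (0.18 ± 0.095), Kif2c (0.14 ± 0.084) and Prc1 (0.21 ± 0.18), at 1, and 0 had an unadjusted p under 0.05 (0.256%).

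With arrays weighted by their quality, from 0.0587 to 5.49, limma called 3 members higher with siTNF-OMe-P than with the scrambled siRNA. They were Ccna2 (0.36 ± 0.085, limma adjusted p = 0.0375), Cenpa (0.34 ± 0.084, 0.0462) and Mad2l1 (0.47 ± 0.11, 0.0337), and 0.686% of all probe sets were called. Squamous epithelial markers, such as keratins of stratified epithelium, were uneven between these groups. Their mean over 6 genes ranged from 7.14 to 7.90 in Control, from 7.43 to 7.70 with scrambled, from 7.23 to 9.80 with siTNF, from 7.53 to 10.2 with siTNF-OMe and from 7.69 to 10.8 with siTNF-OMe-P. It was above 8 in 10 arrays, of which 1 was siTNF, 4 were siTNF-OMe and 5 were siTNF-OMe-P. Without those 10 arrays limma called 0 members in any comparison among the siRNA-dosed groups, and the member median for siTNF-OMe-P minus scrambled was 0.13. That for siTNF-OMe minus scrambled moved from -0.00111 to -0.14, with 31 in place of 17 members below 0, and that for siTNF-OMe minus siTNF from 0.04 to -0.08, with 28 below 0 in place of 7.

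Among the 27 siRNA-dosed arrays, mitosis gene levels were compared with the colon measures in the labels. Myeloperoxidase (MPO) activity, an enzyme activity of neutrophils, had a median of 0.038 units per mg in Control, 0.393 with scrambled, 0.206 with siTNF, 0.514 with siTNF-OMe and 0.407 with siTNF-OMe-P. In a fit with group and batch terms, limma called 0 of 33 members for a slope on log2 MPO activity (0% of all probe sets), the smallest adjusted p being 0.98. Of the slopes 17 were below 0, as were 41.3% over all probe sets, with a median of -0.00288 log2 per doubling of MPO. Without the 2 animals farthest from the median MPO activity, 2 slopes were below 0, with a median of 0.02. At an unadjusted p under 0.05 there was 1 member (3.41% of all probe sets). That gene was Plk1, at -0.12 ± 0.048. For colon length, given as labelled, limma also called 0 of 33 (0%), with 8 slopes below 0 (40.2%), a median of 0.04 log2 per unit length and 1 unadjusted p under 0.05 (2.43%). That gene was Anln, which encodes anillin, at 0.18 ± 0.084. With Control included, 20 of the slopes on colon length were below 0, with a median of -0.03, and without the 2 animals farthest from the median length 3 were, with a median of 0.15.

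Other genes of the cell cycle were read from lists, for scrambled against Control, where 4.45% of all probe sets fell and 7.27% rose. Of 55 measured further mitosis genes, 44 fell and 0 rose, with a median of -0.39. Among them Cdca3, a trigger of mitotic entry, fell by 1.39 ± 0.15 and Spc24, a subunit of the Ndc80 complex, by 1.23 ± 0.17. Of 48 genes of the G1/S transition and DNA replication, 20 fell and 1 rose, with a median of -0.24. Prim1, a primase subunit, fell by 0.85 ± 0.16 and the G1 kinase gene Cdk6 by 0.67 ± 0.067, while the D-type cyclin gene Ccnd3 rose by 0.46 ± 0.095. Of 22 genes of the MuvB, Myb and E2F regulators, 3 fell and 1 rose. E2f3 fell by 0.51 ± 0.060 and E2f8 by 0.46 ± 0.091, while E2f2 rose by 0.35 ± 0.092. Of 21 cell cycle inhibitors and p53 targets, 2 rose and 0 fell, Gadd45g by 1.42 ± 0.21 and Gadd45b by 0.89 ± 0.18, both stress-induced inhibitors of growth. The medians of the last 2 lists were -0.03 and 0.12, and the 1 and 2 genes that rose in them are near the share of all probe sets that rose.

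Of 6 crypt stem cell markers, 5 fell and 0 rose between scrambled and Control, with a median of -0.50. Axin2, a Wnt target, fell by 0.98 ± 0.10 and Rnf43, which removes Wnt receptors, by 0.85 ± 0.13. The mean of the crypt stem cell markers lay between 8.27 and 8.60 in Control and between 7.73 and 7.95 with scrambled. Of 8 pan-epithelial markers limma called 0, with a median of 0.08, and 2 had an unadjusted p under 0.05, as did 20.6% of all probe sets. Of 6 markers of mature colonocytes, 1 fell (Aqp8, a water channel, by 1.13 ± 0.22) and 1 rose (Krt20, a keratin of surface cells, by 0.40 ± 0.10). Goblet cell markers rose in 3 of 5, among them the mucin gene Muc2 by 0.47 ± 0.082 and Clca1 by 0.28 ± 0.081.

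Markers of non-epithelial cells mostly rose in the same comparison. Of 6 leukocyte markers, 5 rose and 0 fell, with a median of 0.79, among them Cd68, of macrophage lysosomes, by 1.87 ± 0.12 and the lysozyme gene Lyz2 by 1.37 ± 0.13. The mean of the leukocyte markers lay between 8.93 and 9.52 in Control and between 9.96 and 10.5 with scrambled. Fibroblast and muscle markers rose in 4 of 6, Des by 0.81 ± 0.12 and Pdgfra by 0.77 ± 0.12, and their mean lay between 10.9 and 11.7 in Control and between 11.6 and 12.0 with scrambled. Endothelial markers rose in 3 of 4, Cdh5 by 0.79 ± 0.15 and Tek by 0.72 ± 0.11, and their mean lay between 8.54 and 9.11 in Control and between 9.22 and 9.89 with scrambled. Of 5 measured genes in a list of B cell genes, 2 rose (Bcl6 by 0.66 ± 0.15 and S1pr2 by 0.27 ± 0.070) and 2 fell (Cd79a by 0.49 ± 0.12 and Fcer2a by 0.37 ± 0.12). Of 6 squamous markers limma called 0, with 0 at an unadjusted p under 0.05. The part of the cell mixture in the mitosis gene differences was not tested.

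Mitosis genes also varied together between animals of the same group. After group and batch means were taken out, the mean correlation over 528 pairs of members was 0.725 across 36 arrays, and 527 pairs were above 0, where the mean over all gene pairs was 0.0305. The points share the array, and the median correlation of members with the array SD was 0.589. With the array SD taken out too, the mean over member pairs was 0.704. Among the 27 siRNA-dosed arrays, with group and batch means but not the array SD taken out, the mean over member pairs was 0.549 (0.0407 over all gene pairs). Cenpe and Prc1 had the highest mean correlation with the other members, 0.809, and Plk1 the lowest, 0.491. Outside the list, the genes whose residuals followed the member mean most closely were Racgap1 (r = 0.956), Cdca3 (0.947), Ncapg (0.938), Cdca8 (0.912) and Tacc3 (0.912), over 36 arrays and 19938 genes.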

How the data were processed

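The authors deposited log2 probe set signals of 36 arrays, 1 per mouse. Per the labels, 25 ng of total RNA (RNeasy) was amplified and biotin labelled. Partek and RMA are named in the submitters' processing notes, with no versions. No source used here gives signal over background, so dim probe sets were kept and the number of arrays limits the precision. Probe sets were named from the platform annotation: 21789 carried 1 gene, 1621 several and 5443 none.

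All 28853 probe sets were fitted with limma 3.58.1 in R 4.3.3, with terms for group, amplification batch and hybridization batch (28 residual degrees of freedom), a mean-variance trend and two-sided tests. p-values were adjusted by Benjamini-Hochberg over all probe sets in each of 10 comparisons, with a threshold of 0.05. Called means past it, and rose and fell are used of called genes. Levels of different probe sets are not comparable. Where the labels name animals only by replicate, p-values measure the spread between these samples.

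The members, role classes and lists were chosen with earlier results of these data known. Every member is named, and in each of 6 role classes the 2 with the largest scrambled difference from Control are given in full. For other comparisons the members past the threshold are named if 5 or fewer, otherwise the 5 of smallest p, or the 3 of smallest p where none passes. Up to 2 called members of a list are named in each direction. Correlations used residuals of the fit, and promoters came from RefSeq on GRCm38.p6. No source used here gives a build for the probes. Alternatives left out batch terms, arrays, batches or dim probe sets, or changed the normalization, moderation, weights or probe set rule. The limit of 1.7 on array SD, that of 8 on squamous markers, one SD for all arrays and the siRNA-dosed groups alone were chosen after seeing the data. The fit was tested on simulated data.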

Additional observations from a re-analysis of the deposited data

Results flagged for a closer look

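In 3 of 60 group values of the fully described genes, 1 array stood apart from the rest of its group by Dixon's test at 95%, which chance gives in about 1 in 20. Ccna2, the cyclin A2 gene, was highest in scrambled replicate 2, at 7.501 log2 where the next array was at 7.15, a gap of 0.578 of the group's range. Cdc20, the activator of the anaphase-promoting complex, was lowest in Control replicate 8, at 8.326 where the next was at 8.948 (0.495 of the range). Ube2c, which works with the same complex, was also lowest in Control replicate 8, at 8.075 where the next was at 8.64 (0.518). Control replicate 8 had an array SD of 1.57. Without that array the 33 mitosis genes were all still lower in scrambled than in Control by limma, with a median of -0.90.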

How the results depend on the processing

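Under 21 other settings and 16 left-out arrays, 1200 member differences of scrambled from Control were recomputed with limma: 1145 kept direction and call, 55 lost the call and 0 changed sign. All 33 members stayed called in the 4 comparisons with Control when any single array was left out or with arrays scaled to one SD (a median of -0.80 for scrambled). With quantile normalization 31 to 33 were called in these 4 comparisons, and without arrays of squamous signal 28 to 33. Within amplification batch 3, which has the fewest calls over all probe sets too, 0 members were called in the 4 comparisons with Control. Without the dimmest 40% of probe sets (11541 of them) 12 members remained to be tested, and all 12 were called in each. With array weights, siTNF-OMe-P minus scrambled gave 3 calls in place of 0. Some uncalled differences among the siRNA-dosed groups changed sign, and the cause was not tested. Within amplification batch 1, which held 1 scrambled, 1 siTNF-OMe and 2 siTNF arrays and so rests on lone arrays, siTNF minus scrambled was 0.00614 for Kif2c and 0.131 for Ttk, siTNF-OMe minus scrambled was -0.0986 for Cenpa, and siTNF-OMe minus siTNF was -0.124 for Kif2c. For Bub1, siTNF-OMe minus siTNF was -0.0781 within amplification batch 2 and -0.00886 within hybridization batch 2. Within amplification batch 3, Cenpa was at -0.0646 for siTNF minus scrambled and Prc1 at -0.0651 for siTNF-OMe-P minus siTNF-OMe. Without arrays of squamous signal, Cenpa was at -0.0493 for siTNF-OMe minus scrambled and Kif2c at -0.0243 for siTNF-OMe minus siTNF. The replicate numbers do not pair the arrays: 32 of 64 same-numbered pairs had a correlation above 0.1, the lowest was -0.697, and 5 arrays were closest to one of their own number. With the number as a replicate block, 33 members were called for scrambled minus Control (median -0.84), as in the other 3 comparisons with Control, and 0 among the siRNA-dosed groups. Searching the 50 bases after the start too moved the share with a CHR from 39.3% to 75.0%, and that with a CHR and a CCAAT box from 35.7% to 64.3%. In place of a detection limit, signal over background being unknown, the deposited log2 values of the array run from 4.95 to 14.1.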
